A study of Homo sapiens with 4 samples.

Results

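The 41 genes described here encode the enzymes of glycolysis, the carriers of glucose and lactate, the regulators that set glycolytic flux, and genes of the hypoxia response. They were chosen by gene symbol from 19610 symbols in a table of mRNA levels, and the level of each gene is the sum of FPKM (fragments per length of transcript and depth of library) over its listed transcripts. All 41 symbols were found, with 268 transcripts. The levels come from hFOB1.19, a human fetal osteoblast line immortalised with a temperature-sensitive SV40 large T antigen, which grows at a lower permissive temperature and differentiates when the temperature is raised. The study followed RNA through this differentiation in 4 libraries, 1 for each of days 0, 3, 6 and 9. The day 0 library came from cells at the permissive temperature, and the libraries of days 3, 6 and 9 from cells of the same line held at the raised temperature. No library was labelled as grown in reduced oxygen or under an added drug. With 1 library per time point, no difference has a replicate check and no test was made. FPKM hold no read counts per gene, so no counting interval is given, although the study lists a total of reads for each time point.

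Glycolysis splits glucose into pyruvate in the cytosol, and lactate dehydrogenase turns pyruvate into lactate when it is not passed to the mitochondria. Osteoblasts rely strongly on glycolysis while they make bone matrix. Hypoxia-inducible factors (HIFs) pair an oxygen-regulated alpha subunit with ARNT. With oxygen present, prolyl hydroxylases of the EGLN family mark the alpha subunit, and the VHL protein then directs it to degradation. Without that mark the pair binds DNA at the core ACGTG or GCGTG and drives genes of glucose uptake, glycolysis and oxygen saving. HIF alpha is set mainly as protein, so mRNA levels do not measure its activity.

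The hypoxia-response genes and the enzymes of glycolysis stood apart in these libraries. On days 3, 6 and 9, 7 of the 10 other hypoxia-response genes were more than 2-fold above day 0, among them NDRG1, P4HA1 and P4HA2. Without CA9, which was under 1 FPKM on day 0, it was 6 of 9. Among all tested genes, 5.93% were past this limit upward on all 3 days. With the HIF subunits, VHL and the prolyl hydroxylases included, 8 of 15 tested members were past it upward on each day. Of the 17 glycolytic enzymes, 1 (ENO2) was past that limit on all 3 days, which is near the share of all genes. HK2 was past it on day 3 alone, when 2 of the 17 were past it upward, beside 8.13% of all tested genes. The TXNIP transcript, whose product restrains glucose uptake, stood furthest from its day 0 level among the members, at 28.3 FPKM on day 0 and 358 FPKM on day 3. No member was past the limit in the lower direction on any of these days.

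A gene was counted as past the limit when log2(FPKM + 1) differed from day 0 by at least 1 or at most -1, which is 2-fold on that scale. Genes at 1 FPKM or more in any library were tested against this limit, 12859 of all genes and 40 of the members. The exception was EGLN3, with 0.244 FPKM on day 0 and at most 0.815 FPKM later. CA9, a carbonic anhydrase, passed the minimum only through the later libraries, having 0.243 FPKM on day 0. Low genes move less on this scale than in FPKM. Where 4 levels are given in a row, they stand for days 0, 3, 6 and 9, and 3 log2 ratios in a row for days 3, 6 and 9.

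On day 3, 14 of the 40 tested members were past the limit upward and 0 downward. Among all tested genes, 8.13% were past it upward and 5.30% downward on that day. On day 6 the members' counts were 11 upward and 0 downward, beside 9.01% and 6.42% of all genes. On day 9 they were 10 upward and 0 downward, beside 9.60% and 6.52% of all genes. The members past the limit upward on all 3 days numbered 10, beside 5.93% of all genes upward and 3.45% downward. Without CA9 the upward counts were 13, 10 and 9 of 39 tested members on days 3, 6 and 9, and 9 on all 3 days. 4 further members were past it on some of the days and 27 of the 41, EGLN3 among them, on none. The 3 comparisons share the day 0 library, so they are not separate evidence. Over all 41 members the median log2 ratio was 0.54, 0.36 and 0.27 on days 3, 6 and 9, and without CA9 it was 0.53, 0.33 and 0.27. Over all tested genes the median was -0.08, -0.08 and -0.09.

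The libraries differed in their sum of FPKM, which was 617857 on day 0 and between 538072 and 569922 later. When FPKM were rescaled to one total, the median of all genes moved by 0.18, 0.16 and 0.11 on days 3, 6 and 9. On day 3 the shares of all genes past the limit then became 10.9% upward and 3.10% downward, and those of the members 17 upward and 0 downward. On day 6 the shares were 11.4% and 3.94%, with 13 members upward, and on day 9 they were 10.8% and 4.88%, with 11 members upward. In each of these settings 0 members were past the limit downward.

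**Figure D1:**
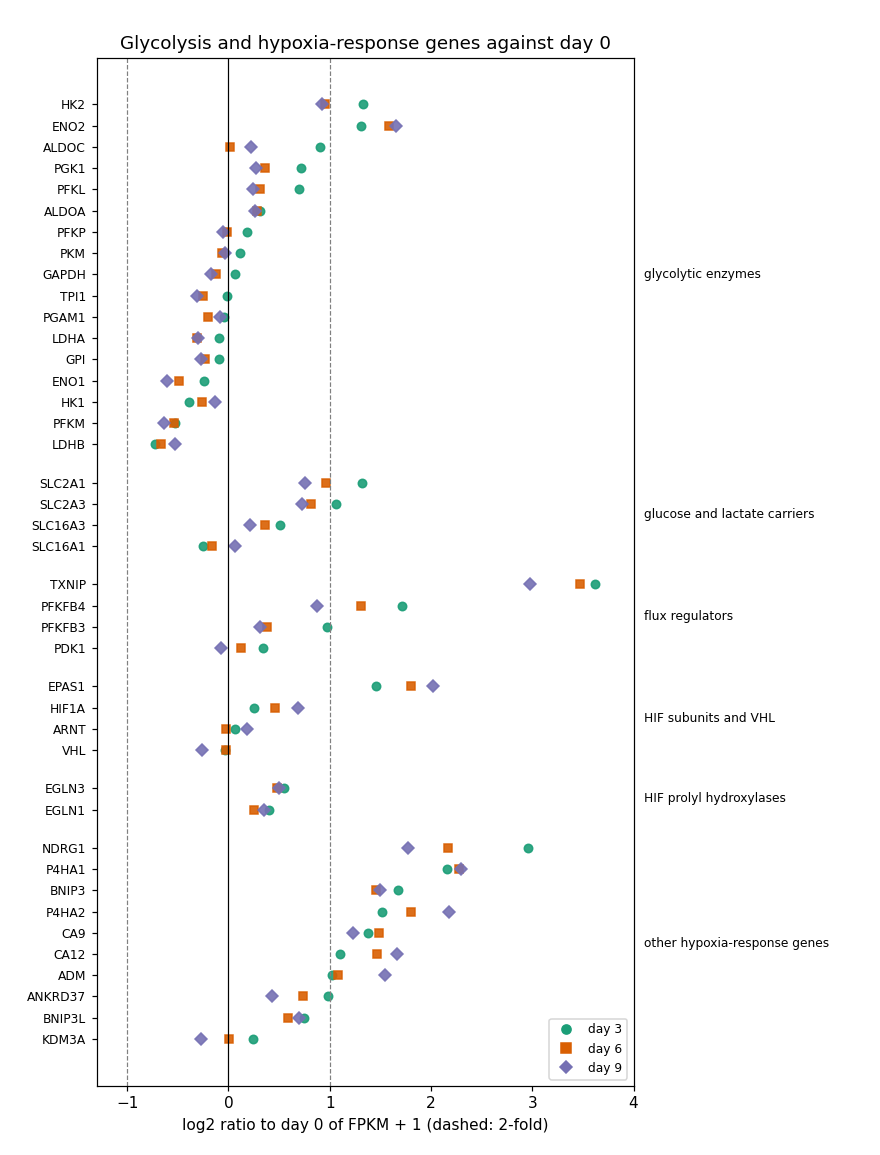
Log2 ratio of (FPKM + 1) to day 0 for each of the 41 genes on days 3, 6 and 9, grouped by role, with dashed lines at -1 and 1. 7 of the 10 other hypoxia-response genes lie right of the upper line on all 3 days and TXNIP reaches 3.62, while BNIP3L, ANKRD37, KDM3A and 15 of the 17 glycolytic enzymes stay between the lines.

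Promoter sequences of the members show how often the letters bound by HIF occur near their starts. RefSeq windows of 300 bases (GRCh38.p14), from 250 bases before to 50 bases after each annotated start, were given for 36 of the 41 members, 65 windows in all. The core ACGTG, read on both strands, was in 24 of these windows (36.9%) and in 21.4% of all 35116 windows. GCGTG was in 27 (41.5%), beside 36.5% of all windows, and either core was in 44 (67.7%), beside 48.4%. The E-box CACGTG, which contains ACGTG on both strands, was in 8 (12.3%), beside 7.26%. By gene, either core was in a window of 11 of the 12 members past the limit on any day (91.7%), of 21 of the 24 other members (87.5%) and of 52.4% of all 27305 genes. In the 200 bases before the start, it was in 9 of the 12 (75%), in 18 of the 24 (75%) and in 42.5% of all genes. By gene, the members past the limit and the others thus held the letters in like shares. By window the shares differed, at 13 of 14 (92.9%) for members past the limit and 31 of 51 (60.8%) for the others. The others had more windows per gene, so the counts by gene and by window are not alike. Some genes have several windows, of which the 1 with the most matches is shown, and a match in letters is not a site of binding.

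The 200 bases before the start are shown for 5 members that were past the limit and for LDHA, which was not, because they hold from 1 to 6 matches. They were chosen after their values were seen. Each is written in the direction of its gene, and capitals mark ACGTG or GCGTG on either strand.
BNIP3 (chr10:131981924-131982123, minus strand): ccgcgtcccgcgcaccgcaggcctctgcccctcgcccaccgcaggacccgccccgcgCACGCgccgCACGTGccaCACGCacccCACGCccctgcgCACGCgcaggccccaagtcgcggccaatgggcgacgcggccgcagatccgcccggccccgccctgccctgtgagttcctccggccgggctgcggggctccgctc
P4HA1 (chr10:73096867-73097066, minus strand): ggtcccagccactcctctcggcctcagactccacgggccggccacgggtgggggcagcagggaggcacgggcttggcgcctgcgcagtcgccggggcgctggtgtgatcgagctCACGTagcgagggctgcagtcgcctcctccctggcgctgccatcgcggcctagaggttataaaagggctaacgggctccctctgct
ENO2 (chr12:6914380-6914579, plus strand): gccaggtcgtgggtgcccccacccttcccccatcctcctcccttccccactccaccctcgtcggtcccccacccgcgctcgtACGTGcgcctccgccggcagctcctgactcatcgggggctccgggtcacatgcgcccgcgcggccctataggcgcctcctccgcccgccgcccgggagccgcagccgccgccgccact
CA9 (chr9:35673728-35673927, plus strand): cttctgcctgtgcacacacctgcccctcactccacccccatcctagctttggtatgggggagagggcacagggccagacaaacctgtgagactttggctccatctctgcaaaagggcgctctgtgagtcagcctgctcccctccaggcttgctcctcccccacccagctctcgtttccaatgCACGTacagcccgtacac
TXNIP (chr1:145996580-145996779, minus strand): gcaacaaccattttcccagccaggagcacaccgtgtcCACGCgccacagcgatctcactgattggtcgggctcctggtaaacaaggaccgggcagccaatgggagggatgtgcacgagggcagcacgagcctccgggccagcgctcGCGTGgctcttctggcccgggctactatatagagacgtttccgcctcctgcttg
LDHA (chr11:18394363-18394562, plus strand): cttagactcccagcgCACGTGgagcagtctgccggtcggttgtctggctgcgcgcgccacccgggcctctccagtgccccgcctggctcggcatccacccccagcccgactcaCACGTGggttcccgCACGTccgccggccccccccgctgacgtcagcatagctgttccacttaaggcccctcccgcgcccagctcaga
BNIP3 held 6 matches, including a CACGTG whose first marked base lies 134 bases before the start, and P4HA1, ENO2 and CA9 held 1 ACGTG each. TXNIP held 2 GCGTG and no ACGTG in this stretch. LDHA held 5 ACGTG matches, more than P4HA1, although its level was not past the limit on any day. Each CACGTG in BNIP3 and LDHA counts once on each strand, so their matches mark fewer places than their number. P4HA2, CA12 and SLC2A1 held no match in the same stretch, which says only that these letters are not in it.

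The hypoxia-response genes were the role group with the highest share of members past the limit. Their median log2 ratio was 1.24, 1.46 and 1.52 on days 3, 6 and 9. NDRG1, a stress-response gene induced in low oxygen and in differentiating cells, had 14.2, 117, 67.4 and 50.8 FPKM over days 0, 3, 6 and 9. Its log2 ratio to day 0 was 2.96, 2.17 and 1.77. NDRG1 was thus highest on day 3 and came down in each later library while staying above day 0.

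The collagen prolyl 4-hydroxylases hydroxylate proline in collagen, which the triple helix needs to be stable. P4HA1, a catalytic subunit, had 46.8, 212, 230 and 234 FPKM over days 0, 3, 6 and 9, with log2 ratios of 2.16, 2.27 and 2.30. P4HA2, its other common form, had 93.0, 268, 327 and 426 FPKM, with log2 ratios of 1.52, 1.81 and 2.18. Both were higher in every later library than in the one before. P4HA2 was the more abundant in each library, by 1.99, 1.26, 1.42 and 1.82 times over days 0, 3, 6 and 9. Collagen genes are also part of the osteoblast programme, and COL1A2 went from 125 FPKM on day 0 to 856, 753 and 561 on days 3, 6 and 9.

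BNIP3 and BNIP3L encode related proteins of the outer mitochondrial membrane that mark mitochondria for removal. BNIP3 had 44.2, 143, 123 and 127 FPKM over days 0, 3, 6 and 9, with log2 ratios of 1.67, 1.46 and 1.5. BNIP3L had 81.4, 137, 122 and 133 FPKM, and its log2 ratios of 0.75, 0.58 and 0.70 stayed within the limit. BNIP3L was the more abundant of the pair on day 0, and BNIP3 was close to it in the later libraries.

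The carbonic anhydrases CA9 and CA12 sit in the cell membrane and hydrate carbon dioxide outside the cell, which helps to balance pH. CA9 had 0.243, 2.23, 2.49 and 1.92 FPKM over days 0, 3, 6 and 9, with log2 ratios of 1.38, 1.49 and 1.23. CA12 had 1.16, 3.65, 4.96 and 5.86 FPKM, with log2 ratios of 1.11, 1.46 and 1.67. Both were low genes, and CA12 was higher in each later library than in the one before.

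ADM encodes adrenomedullin, a secreted peptide that widens blood vessels. Its level was 30.7, 63.7, 66.4 and 92.0 FPKM over days 0, 3, 6 and 9, with log2 ratios of 1.03, 1.09 and 1.55. The first of these is just past the limit. ANKRD37, a small ankyrin repeat gene induced by HIF, had 1.90, 4.73, 3.81 and 2.91 FPKM, and its log2 ratio of 0.98 on day 3 was just short of it. KDM3A, a histone demethylase, had between 12.1 and 17.7 FPKM, with the lowest level on day 9.

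Among the HIF subunits the transcript of EPAS1 (HIF-2 alpha) was past the limit and that of HIF1A was not. EPAS1 had 28.8, 80.6, 103 and 119 FPKM over days 0, 3, 6 and 9, with log2 ratios of 1.45, 1.80 and 2.02. HIF1A had 142, 169, 196 and 229 FPKM, with log2 ratios of 0.25, 0.46 and 0.69. HIF1A stayed the more abundant, but the ratio of HIF1A to EPAS1 within a library was 4.94, 2.10, 1.90 and 1.92 over days 0, 3, 6 and 9. Both levels were higher in each library than in the one before. ARNT, the shared partner, had between 16.1 and 18.6 FPKM, and VHL between 19.5 and 23.5 FPKM, with the lowest level of VHL on day 9. The prolyl hydroxylase EGLN1 had 11.8 FPKM on day 0 and 15.8, 14.2 and 15.3 FPKM later.

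**Figure D2:**
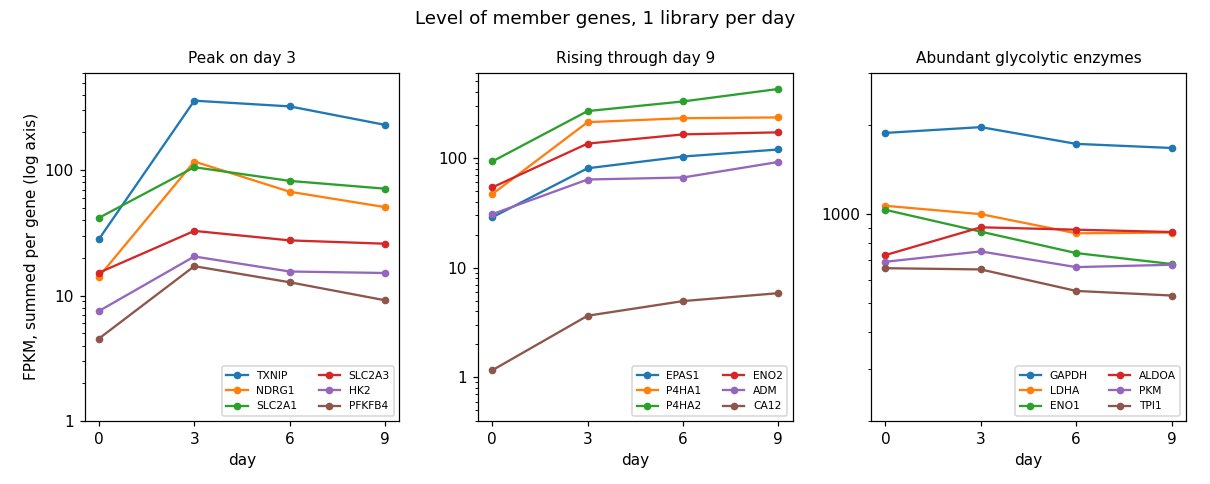
FPKM per gene (log axis) against day, 1 library per day, for members highest on day 3 (left), members higher in each later library than in the one before (middle) and abundant glycolytic enzymes (right). TXNIP goes from 28.3 to 358 FPKM by day 3 and is at 230 on day 9, P4HA2 goes on to 426 FPKM on day 9, and GAPDH stays between 1670 and 1964 FPKM.

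TXNIP encodes an arrestin-like protein that binds thioredoxin and promotes the removal of glucose transporters from the cell surface. Its own transcript is induced by high glucose. The level was 28.3, 358, 323 and 230 FPKM over days 0, 3, 6 and 9, with log2 ratios of 3.62, 3.47 and 2.98. In FPKM these levels were 12.7, 11.4 and 8.13 times that of day 0, and the gene moved from rank 3739 on day 0 to rank 318 on day 9. ARRDC4, a close relative of TXNIP that also restrains glucose uptake, had 2.55, 41.5, 37.6 and 35.2 FPKM over days 0, 3, 6 and 9. It was the 1 gene past the limit among the 9 listed partners of TXNIP and genes of glucose sensing. Of all tested genes, 5.93% were past it upward on all 3 days, and 1 in a list this short is near that share.

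The bifunctional enzymes of the PFKFB family set the level of fructose 2,6-bisphosphate, the strongest activator of phosphofructokinase. PFKFB4 had 4.55, 17.2, 12.8 and 9.19 FPKM over days 0, 3, 6 and 9, with log2 ratios of 1.71, 1.31 and 0.88. It was past the limit on days 3 and 6 and within it on day 9. PFKFB3 had 13.6, 27.7, 18.1 and 17.1 FPKM, and its log2 ratio of 0.97 on day 3 stayed just within the limit. PDK1, a kinase that switches off pyruvate dehydrogenase, had between 14.6 and 19.8 FPKM. The 4 flux regulators were all lower on day 6 than on day 3 and lower on day 9 than on day 6.

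The glucose carriers had their highest level on day 3. SLC2A1 (GLUT1), the main basal glucose carrier of many cells, had 41.7, 106, 82.2 and 71.2 FPKM over days 0, 3, 6 and 9, with log2 ratios of 1.32, 0.96 and 0.76. SLC2A3 (GLUT3), a carrier of high affinity, had 15.2, 32.8, 27.6 and 25.9 FPKM, with log2 ratios of 1.06, 0.81 and 0.73. Both were past the limit on day 3 alone. SLC16A3 (MCT4), which exports lactate, had 144, 205, 185 and 167 FPKM, with log2 ratios of 0.51, 0.36 and 0.21. SLC16A1 (MCT1), which carries lactate in both directions, had between 26.4 and 33.2 FPKM. The ratio of SLC16A3 to SLC16A1 was 4.54, 7.76, 6.56 and 5.02 over days 0, 3, 6 and 9. SLC2A3 shares nearly all of its sequence with SLC2A14, so its level is uncertain where reads could be split between them.

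The 17 glycolytic enzymes had a median log2 ratio of 0.06, -0.12 and -0.08 on days 3, 6 and 9. After rescaling to one total these medians were 0.26, 0.06 and 0.03, so the last 2 changed sign. Together the enzymes held 1.18% of all FPKM on day 0 and 1.37%, 1.20% and 1.14% on days 3, 6 and 9. Of the 15 within the limit on all days, 4 were above day 0 on all 3 days, 8 were below it on all 3 and 3 were mixed. These counts rest on FPKM as deposited, and after rescaling GPI, TPI1, PGAM1 and LDHA changed sign on day 3, PFKP, GAPDH and PKM on day 6, and PFKP, PGAM1 and PKM on day 9. Their log2 ratios ran from -0.72 (LDHB on day 3) to 0.91 (ALDOC on day 3). Reads of GAPDH, PGK1, LDHA, ENO1 and PGAM1 can also match processed pseudogenes, and how the counting treated them is not stated, so these levels are uncertain to that extent.

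Hexokinase traps glucose in the cell as glucose 6-phosphate. HK2, its inducible form, had 7.54, 20.5, 15.6 and 15.2 FPKM over days 0, 3, 6 and 9, with log2 ratios of 1.33, 0.96 and 0.92. HK1, the widely expressed form, had 73.9, 56.2, 61.4 and 67.1 FPKM. HK1 stayed the more abundant, by 9.80 times on day 0 and by 2.74, 3.94 and 4.43 times later.

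Enolase makes phosphoenolpyruvate, and its form ENO2 is best known from neurons. ENO2 had 53.9, 135, 164 and 171 FPKM over days 0, 3, 6 and 9, with log2 ratios of 1.31, 1.59 and 1.65. ENO1, the general form, had 1033, 872, 738 and 678 FPKM, with log2 ratios of -0.24, -0.48 and -0.61. ENO2 was higher and ENO1 lower in each library than in the one before, and the ratio of ENO1 to ENO2 was 19.2, 6.44, 4.50 and 3.96 over days 0, 3, 6 and 9.

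Lactate dehydrogenase is built from A and B subunits. LDHA had 1065, 999, 861 and 866 FPKM over days 0, 3, 6 and 9, within the limit on each day. LDHB had 327, 198, 205 and 226 FPKM, with log2 ratios of -0.72, -0.67 and -0.53. The A subunit was the more abundant in each library, by 3.26, 5.05, 4.19 and 3.83 times over days 0, 3, 6 and 9.

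GAPDH, the reference gene of the study's quantitative PCR, was the most abundant of the 41 genes in every library. It had 1877, 1964, 1724 and 1670 FPKM over days 0, 3, 6 and 9, with log2 ratios of 0.06, -0.12 and -0.17. It took 0.304% of all FPKM on day 0 and 0.365%, 0.316% and 0.293% on days 3, 6 and 9. After rescaling to one total its ratio on day 6 turned from below to above 0.

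Phosphofructokinase carries out the committed step of glycolysis. Its platelet form PFKP supplied between 57.3% and 59.4% of the FPKM summed over the 3 isozymes in every library. The liver form PFKL supplied 19.4%, 28.2%, 25% and 24.8% over days 0, 3, 6 and 9. The share of the muscle form PFKM was 23.3%, 14.2%, 16.3% and 15.9%. None of the 3 was past the limit on any day.

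The other enzymes lay between these steps, and none of them was past the limit. ALDOA, the main aldolase, which splits the hexose bisphosphate, had 727, 902, 885 and 869 FPKM, and ALDOC, its brain form, had 13.7, 26.5, 13.9 and 16.1 FPKM. ALDOC was thus highest on day 3 and back near its first level on day 6. PGK1, which makes the first ATP of the pathway, had 71.0, 117, 91.1 and 86.0 FPKM, with log2 ratios of 0.71, 0.36 and 0.27. PKM, pyruvate kinase, had between 662 and 747 FPKM. The isomerases GPI and TPI1 had their highest levels, 157 and 656 FPKM, on day 0 and their lowest, 130 and 531 FPKM, on day 9. The mutase PGAM1 had between 285 and 327 FPKM.

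**Figure D3:**
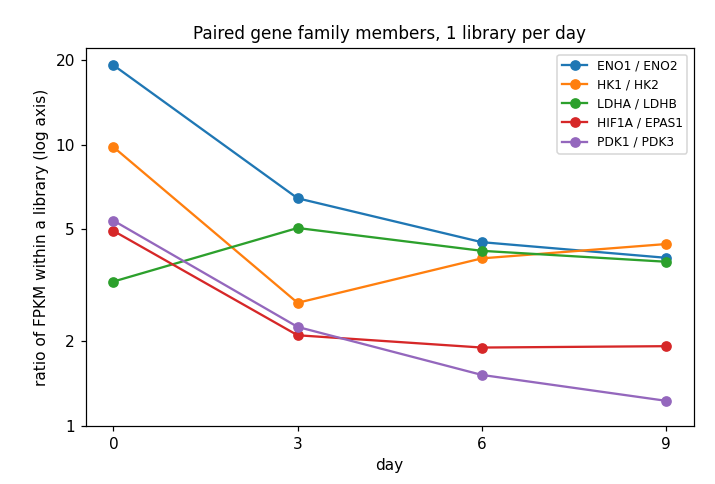
Ratio of the FPKM of related genes within each library (log axis) against day, 1 library per day, for 5 pairs of genes. The ratio of ENO1 to ENO2 goes from 19.2 to 3.96 and that of HIF1A to EPAS1 from 4.94 to 1.92.

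Differences among the later days were smaller than those from day 0. On day 6 against day 3, 0 members were past the limit in either direction, beside 0.607% of all genes upward and 0.443% downward. The median log2 ratio of the 41 was -0.15, and 29 of them were below 0, while that of all genes was -0.00. On day 9 against day 6, 0 members were past the limit, beside 0.381% upward and 0.163% downward, with a median of -0.04. Of the 40 tested members, 21 (52.5%) had their highest level on day 3, where 19.2% of all genes did. On day 0 it was 9 members (22.5%) beside 46.0% of all genes, on day 6 it was 1 (2.50%) beside 12.3%, and on day 9 it was 9 (22.5%) beside 22.4%.

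The 14 members past the limit on any day followed different courses from day 3 to day 9. HK2, SLC2A1, SLC2A3, PFKFB4, TXNIP and NDRG1 were lower in each library than in the one before, a course that 26.4% of all genes had. ENO2, EPAS1, CA12, ADM, P4HA1 and P4HA2 were higher in each, as were 28.8% of all genes. BNIP3 and CA9 did neither.

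**Figure D4:**
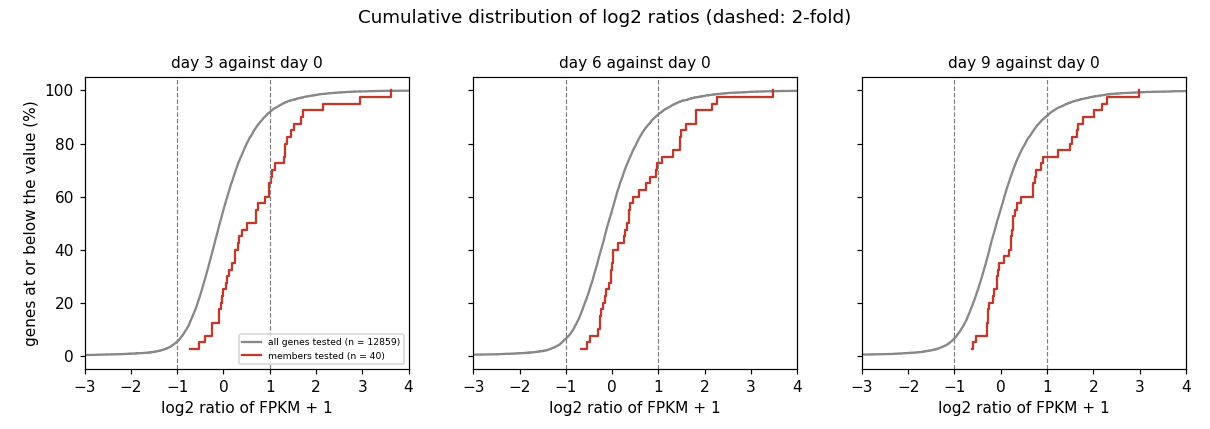
Cumulative share of genes (percent) against the log2 ratio of (FPKM + 1) on days 3, 6 and 9 against day 0, for all 12859 tested genes (grey) and the 40 tested members (red), with dashed lines at -1 and 1. The members lie to the right of all genes in each panel, and none lies left of the lower line.

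Transcripts of some members did not move together. The level of P4HA1 was carried mostly by ENST00000373008, with 20.8, 154, 171 and 175 FPKM over days 0, 3, 6 and 9. Its share of the gene went from 44.4% on day 0 to 74.5% on day 9. ENST00000307116, another transcript of the gene, had 16.6, 14.3, 12.9 and 12.4 FPKM. In P4HA2, ENST00000379086 had 6.25, 98.3, 135 and 185 FPKM over days 0, 3, 6 and 9, going from 6.73% to 43.4% of the gene. ENST00000360568 of P4HA2 had 37.8, 44.7, 41.2 and 44.5 FPKM. Both collagen hydroxylase genes were therefore higher through some of their transcripts and not others.

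In HIF1A, ENST00000337138 went from 97.3 FPKM on day 0 to 179 on day 9, while ENST00000394997 had 39.9, 31.6, 34.1 and 38.6 FPKM. In PFKM, whose summed level was within the limit, ENST00000547587 had 13.6 FPKM on day 0 and 3.74, 4.31 and 3.51 FPKM later. ENST00000551804 of PFKM had 0.446 FPKM on day 0 and 3.73, 5.03 and 5.70 FPKM later. These PFKM transcripts moved in opposite directions beneath a summed level that stayed within the limit. Each FPKM of a transcript is an estimate that divides shared reads among transcripts, so it is less certain than the sum.

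**Figure D5:**
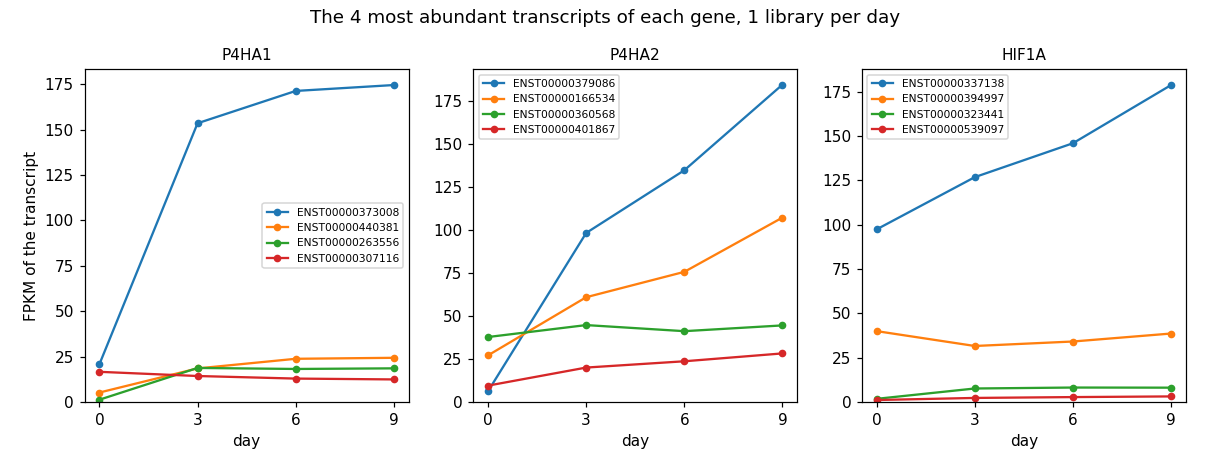
FPKM of the 4 most abundant transcripts of P4HA1, P4HA2 and HIF1A (a panel each) against day, 1 library per day, points joined by lines. In P4HA2 one transcript goes from 6.25 to 185 FPKM while another stays between 37.8 and 44.7 FPKM.

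Other genes of the hypoxia response, from a list of 36, were tested in the same libraries. On day 3, 18 of them were past the limit upward and 0 downward, beside 8.13% and 5.30% of all genes. On day 6 it was 15 and 1, beside 9.01% and 6.42%. On day 9 it was 17 and 1, beside 9.60% and 6.52%. The medians were 1.0, 0.83 and 0.94 on the 3 days. 12 were past the limit upward on all 3 days, beside 5.93% of all genes. BHLHE41, counted upward on day 9, and CXCR4, never past the limit, had 0.912 and 0.101 FPKM on day 0. Both passed the minimum only through later libraries. PPP1R3C, a subunit that directs a phosphatase to glycogen, had 4.38, 33.3, 40.5 and 47.1 FPKM over days 0, 3, 6 and 9. DDIT4, an inhibitor of mTOR signalling, had 2.76, 37.6, 27.4 and 20.3 FPKM. VEGFA, the growth factor of blood vessels, had 19.1, 77.0, 102 and 113 FPKM. VEGFA was higher in each library than in the one before, while DDIT4 was highest on day 3. MXI1, an antagonist of MYC, had 3.96, 21.0, 21.0 and 21.7 FPKM. The 1 gene past the limit downward was GYS1, muscle glycogen synthase, with 27.8 FPKM on day 0 and 9.80 on day 9. It was named because it was the only one.

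Of 15 other regulators of the HIF pathway, 13 were found by symbol and 11 were tested. ARNT2, a relative of ARNT, was the 1 past the limit, with 2.54, 9.88, 12.9 and 11.4 FPKM over days 0, 3, 6 and 9. Of all genes, 8.13%, 9.01% and 9.60% were past it upward on days 3, 6 and 9, and 5.30%, 6.42% and 6.52% downward. In lists this short, counts of 0 or 1 are near these shares. Of 15 other glycolytic isozymes, 6 were tested and 0 were past the limit on any day. Of 16 other sugar and monocarboxylate carriers, 10 were tested. On day 3, 1 of these was past the limit upward and 0 downward, and on days 6 and 9 it was 2 upward and 1 downward. SLC2A12 (GLUT12) was past the limit upward on all 3 days, at 1.38 FPKM on day 0 and 6.75, 5.61 and 6.37 FPKM later. SLC2A9 was past it upward on days 6 and 9, a low gene with 0.318 FPKM on day 0 and 1.27, 1.80 and 1.99 FPKM later. SLC16A7 (MCT2), the 1 carrier past it downward, went from 19.8 FPKM on day 0 to 5.71 on day 9.

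At the step from pyruvate into the mitochondria, 12 of 13 listed genes were tested, and on each later day 1 was past the limit upward and 2 downward. Of all genes, 8.13%, 9.01% and 9.60% were past it upward on days 3, 6 and 9, and 5.30%, 6.42% and 6.52% downward. PDHB, the beta subunit of pyruvate dehydrogenase, had 74.6, 27.6, 24.3 and 24.2 FPKM over days 0, 3, 6 and 9. DLAT, the acetyltransferase of the same complex, had 26.8, 10.2, 11 and 9.61 FPKM. PDK3, a kinase that inhibits the complex, had 2.89, 8.83, 11.2 and 11.9 FPKM. The ratio of the member PDK1 to PDK3 was 5.37 on day 0 and 2.25, 1.52 and 1.23 later. The median log2 ratio of the tested genes of this list was -0.38, -0.52 and -0.42.

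Long noncoding RNAs linked to hypoxia or lying beside members were listed too. Of the 15 listed, 8 were found by symbol and 7 were tested. On day 3, 3 were past the limit upward, beside 14.3% of the 2357 tested lncRNA genes. The 1 past it downward on that day was ENO1-AS1, a low gene with 1.64 FPKM on day 0 and 0 on day 3. On days 6 and 9, 2 and 1 were past it upward. The share over all lncRNA genes was taken only for the upward direction on day 3, so the other counts have none beside them. MIR210HG, the host of a microRNA induced in hypoxia, had 6.54, 25.8, 20.3 and 19.5 FPKM over days 0, 3, 6 and 9. It was the 1 lncRNA of the list past the limit on all 3 days. HIF1A-AS2, antisense to HIF1A, had 2.89, 3.02, 3.01 and 1.25 FPKM. Whether strand was used in the counting is not stated, so reads of a gene and its antisense partner cannot be told apart where they overlap.

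Markers of the cells were read beside these results. COL1A1 and SPARC were abundant in all 4 libraries. Of 6 tested osteoblast markers, 3 (RUNX2, ALPL and COL1A2) were past the limit upward on all 3 days, beside 5.93% of all genes. ALPL was under 1 FPKM on day 0, and RUNX2 had 7.37, 26.2, 19.3 and 18.2 FPKM over days 0, 3, 6 and 9. COL1A1 was past the limit upward on days 3 and 6. SPP1 was past it on days 6 and 9, with 0.794 FPKM on day 0 and 7.45 FPKM on day 9. SP7, a factor of osteoblast commitment, and BGLAP and IBSP, genes of mature osteoblasts, were under 1 FPKM in each library. Of 9 markers of other cell types, 6 were under 1 FPKM on day 0 and 7 on each later day. The sum over the 7 markers other than CD68 and KRT18 was 2.79 FPKM on day 0 and between 1.25 and 2.26 FPKM later, and PTPRC, PECAM1, CDH5, EPCAM, MYOD1 and DES were among those under 1 FPKM. With all 9 it was 413 FPKM on day 0 and 255, 248 and 279 FPKM later, most of it KRT18. CD68, a lysosomal protein of macrophages that other cells also express, had 16.2, 37.5, 65.1 and 90.6 FPKM. The part of these changes in the members' levels was not tested. In bulk RNA, fewer cells of a kind and less RNA per cell cannot be told apart. The rise in temperature, the differentiation and the time in culture all separate day 0 from the later days and cannot be told apart here.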

How the data were processed

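RNA of hFOB1.19 cells was measured in 4 libraries, 1 per time point. According to the study's methods and the labels, total RNA was depleted of ribosomal RNA, made into directional libraries and aligned with Bowtie and TopHat. RNase R, which digests linear RNA, is described there for the mRNA libraries. The submitters' processing notes name Bowtie 0.12.2 and mm8, a mouse build, although the transcripts carry human Ensembl IDs. The program behind the FPKM, its build and its use of strand are not given in the sources used here. The authors deposited FPKM per transcript, normalised to transcript length and library size. Their 9 comparison tables, with fold changes, p-values and q-values, were not used. CircRNA tables, which pair no gene with a circRNA, were not used. No per-sample column was left unmapped (0).

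FPKM were summed per symbol, 1 was added and log2 ratios were taken between libraries. Genes at 1 FPKM or more in any library were tested against a limit of 2-fold, with no p-value. Of the 19610 symbols, 17 cover more than 1 gene ID. Members past the limit and GAPDH were given in every library, other members where they were highest or lowest in their role, and from other lists up to 4 genes past the limit in one direction on all 3 days. Genes named beyond this rule were chosen after their values were seen. The members and gene lists were chosen with earlier results of these data known. Alternatives were another pseudocount, no minimum, FPKM rescaled to one total or by the median of ratios, the most abundant transcript only, and limits of 1.5-fold and 4-fold. The computation was checked on simulated data. Motifs were searched in RefSeq promoter windows (GRCh38.p14). Computations ran in Python 3.11.15 (numpy 2.4.6, pandas 2.3.3), and figures were drawn with matplotlib 3.10.9.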

Additional observations from a re-analysis of the deposited data

How the results depend on the processing

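With 1 library per time point, no spread between libraries could be given, and FPKM without read counts per gene limit what can be said of low genes such as CA9 and CA12. No paired analysis was possible because only a single library stands for each day. In all settings with the 2-fold limit, 0 members were past it downward, and the upward counts ran from 14 to 17 (day 3), 11 to 13 (day 6) and 10 to 11 (day 9). With the 1.5-fold limit, 1, 1 and 2 members were past it downward on days 3, 6 and 9, beside 18.5%, 20.1% and 20.4% of all genes. Upward on day 9 it was 16 members beside 18.1% of all genes, and downward on day 6 against day 3 it was 3 members beside 2.17%. With the 4-fold limit, 3, 3 and 4 members were past it upward on days 3, 6 and 9, beside 1.66%, 2.01% and 2.34% of all genes. The median log2 ratio of the members on day 3 was 0.71 with a pseudocount of 0.1 FPKM. After rescaling to one total it was 0.71, 0.53 and 0.39 on the 3 days, and after rescaling by the median of ratios it was 0.49 on day 6 and 0.40 on day 9. PFKFB3, ANKRD37, HK2, SLC2A1, ALDOC, EGLN3 and PFKFB4 went past the limit on further days under 1 or more settings, and 0 members named as past it lost that place under these settings at 2-fold. Members near 0 changed sign after rescaling, among them GPI, TPI1 and LDHA on day 3 and GAPDH and PKM on day 6, always within the limit. With the most abundant transcript only, GPI, PFKM, ARNT, VHL and KDM3A changed sign on day 3. On day 6 it was GPI, PDK1, VHL and KDM3A, and on day 9 ARNT, again within the limit. PFKM went from -0.53 to 0.08 on day 3, so not all of these were near 0.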

Other observations

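The pentose phosphate pathway, which branches from glucose 6-phosphate and supplies NADPH and ribose, had 7 listed genes, all of them tested, and 0 were past the 2-fold limit on any later day. Of all genes, 8.13%, 9.01% and 9.60% were past it upward on days 3, 6 and 9, and 5.30%, 6.42% and 6.52% downward. With 7 genes, a count of 0 is not far from these shares. TKT, transketolase, had 106 FPKM on day 0 and 192, 185 and 179 FPKM on days 3, 6 and 9. Of 9 listed genes that act on fructose 2,6-bisphosphate or in gluconeogenesis, 5 were tested. TIGAR, a phosphatase that lowers fructose 2,6-bisphosphate, was past the limit upward on all 3 days, as were 5.93% of all genes. It had 8.13 FPKM on day 0 and 26.4, 22.4 and 21.8 FPKM later. G6PC3, a phosphatase of glucose 6-phosphate, had 41.7 FPKM on day 0 and 21.3, 18.5 and 20.03 FPKM later, past the limit downward on days 6 and 9. TKT was chosen after its values were seen. None of these values has a replicate.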
